A study of Komagataella phaffii with 9 samples.

Results

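The 9 libraries of the series were read here as a series of 3 *CRA1* doses, with the *Δcra1* strain lowest, the control strain in the middle and the *CRA1* overexpression (OE) strain highest. All 9 of 9 libraries entered, and all 5340 of the 5344 counted sequences that were neither *CRA1* itself nor 1 of 3 construct sequences, the eGFP reporter and the kanamycin and Zeocin resistance markers. The choice of these genes used no measured value, whereas the gene lists and the genes named in the text were chosen with results of these libraries known. For each gene the linear trend over the doses was tested, and separately the departure of the control from the line between both altered strains. Genes with a called trend whose fitted means moved one way over all 3 doses (monotone) were set against genes with a called departure. In the latter the fitted means of both altered strains lay on the same side of the control. No single step between strains had to pass a test, so a class member may differ clearly in only 1 altered strain.

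*Komagataella phaffii* (syn. *Pichia pastoris*) CBS 7435 was grown for RNA sequencing in shake flasks on M2 minimal medium with 5 g L-1 glucose, and cells were taken in exponential phase after preculture in YP medium with Zeocin. The control strain carried an eGFP reporter under the promoter of glyceraldehyde-3-phosphate dehydrogenase (GAP promoter; the strain name gives it as P9), and the other strains carried this reporter too. The OE strain overexpressed *CRA1* from a promoter not given in the sources used here, and in the *Δcra1* strain the gene was deleted with a split marker cassette. A single transformant represented each strain with 3 cultures, so the p-values measure the spread between cultures of a transformant, and strain and transformant cannot be told apart.

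*CRA1* encodes a regulator of the Gal4-like family, whose members bind DNA through a zinc cluster of cysteines. In *Saccharomyces cerevisiae* Gal4 switches on the genes of galactose use, while *K. phaffii* does not use galactose, and the study examined *CRA1* as a regulator of glucose metabolism. Glycolysis converts glucose to pyruvate, which is either respired through the pyruvate dehydrogenase complex and the TCA cycle or turned into ethanol by pyruvate decarboxylase and alcohol dehydrogenase. A yeast that makes ethanol from surplus glucose although oxygen is present is called Crabtree-positive.

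*CRA1* followed the strain labels in every library. It had 0 counts in all *Δcra1* libraries and 11 counts in each control library. The OE libraries had 810, 95 and 316 counts for replicates 1, 2 and 3, so the dose varied widely within that strain, with replicate 2 lowest. The kanamycin marker had between 1526 and 1751 counts in the *Δcra1* libraries, 0 in the control libraries and between 10 and 19 in the OE libraries. In depth the control libraries were the smallest, with 106343 to 108535 counts in total. OE replicate 2 followed with 114609, and the other 5 libraries held 139065 to 223825. Counts of 0 allow a share of up to 0.00134% in the largest library and 0.00282% in the smallest, for counting error only. The share of the most abundant sequence was 8.14% to 9.86% in the control libraries, 8.32% in OE replicate 2 and 4.25% to 5.96% in the other libraries. OE replicate 2 was thus close to the control libraries in total count and in this share, but not in the shares of the glycolytic and fermentative genes, which were 0.939% and 0.497% in it and at most 0.408% and 0.256% in the control libraries. Whether its depth bears on the classes was not tested beyond leaving it out and thinning the libraries. In these bulk cultures a change in every cell and a change in part of the cells cannot be told apart.

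Both shapes of response were common, and rising trends outnumbered falling ones. Of 5340 genes, 2668 passed the filter on low counts, and 507 of them (19.0%) had a trend with an adjusted p-value under 0.05 and at least a 2-fold difference between the *Δcra1* and OE strains (edgeR's quasi-likelihood test over all 9 libraries, Benjamini-Hochberg adjusted over the 2668 genes). In 333 genes (12.5%) the trend rose and in 174 (6.52%) it fell. The control departed from the line by at least 2-fold in 269 genes (10.1%), with the control lower in 191 (7.16%) and higher in 78 (2.92%). This majority depended on the fold cutoff and on the control libraries in the fit. Without the cutoff there were 463 departures, with the control lower in 214 and higher in 249. The control was lower in 47 and higher in 57 genes without control replicate 2, and in 62 and 65 without replicate 3. Without replicate 1 it was lower in 85 and higher in 75. These fits tested 3234, 3225 and 3218 genes. With scaling by library totals in place of TMM factors, rising genes made up 52.3% of the trends and not 65.7%.

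From these calls and the place of the control mean, 218 genes (8.17%) were monotone rising and 118 (4.42%) monotone falling, while 179 (6.71%) were higher and 65 (2.44%) lower in both altered strains than in the control. Another 79 genes (2.96%) had a trend but a control mean outside those of the altered strains without a called departure. In 76 genes (2.85%) every library of each strain lay above every library of the strain with the next lower dose, and in 51 (1.91%) below. Of these, 74 were called monotone rising and 37 monotone falling. In 151 genes (5.66%) all 6 libraries of the altered strains lay above all 3 control libraries, and 95 of these were called higher in both. In 241 (9.03%) they lay below, and 45 of these were called lower in both. Genes higher in both made up 73.4% of the genes displaced from the control in both altered strains, and 56.5%, 47.1% or 51.9% without control replicate 1, 2 or 3. With no fold cutoff their share was 46.5%. Scaled by library totals, the split of monotone genes shifted from 64.9% to 49.4% rising.

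**Figure D1:**
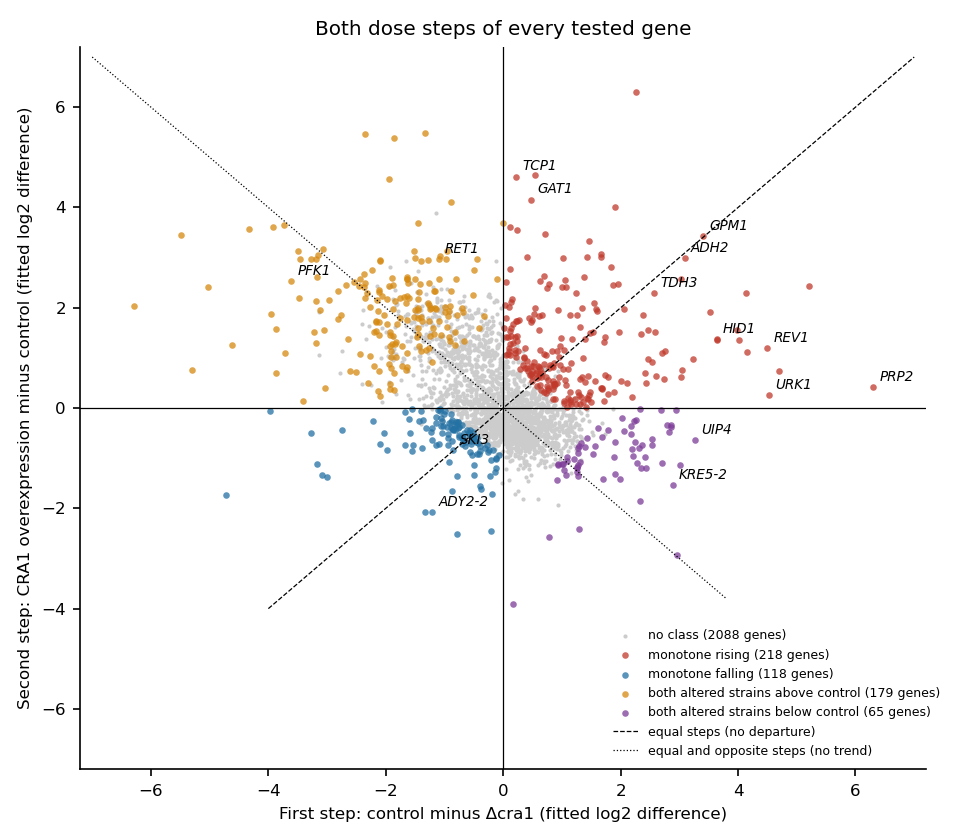
Each point is 1 of 2668 tested genes, with the fitted log2 difference between control and *Δcra1* strain on the x axis and between OE and control strain on the y axis. Colours mark the 218 monotone rising, 118 monotone falling, 179 both-above-control and 65 both-below-control genes. *GPM1*, *ADH2* and *TDH3* lie near the dashed line of equal steps, *TCP1* and *GAT1* near the y axis, and *PRP2* and *URK1* near the x axis.

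The shape of a monotone response is described by its 2 steps, from the *Δcra1* strain to the control (first step) and from the control to the OE strain (second step), since the departure is the first step minus the second, divided by 2. Of the 218 monotone rising genes, 23 had a larger first step and 13 a larger second step at an adjusted p-value under 0.05, and for 182 the steps were not told apart. Among the 118 falling genes these numbers were 6, 2 and 110. Both the trend and the 2-fold departure were called in 117 genes (4.39%), of which 20 were monotone rising, 5 monotone falling, 61 higher and 31 lower in both altered strains. Both steps share the same 3 control libraries, whereas the slope does not use them.

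Most genes of glycolysis rose with dose. Of the 12 listed genes, all of which were tested, 10 were monotone rising, against 8.17% of all tested genes, and 9 of these 10 did so with no overlap between strains. The other 2, hexokinase *HXK1* and the phosphofructokinase subunit *PFK1*, were higher in both altered strains than in the control. The median slope of the list was 2.11 on the log2 scale per dose step, against 0.05 over all tested genes. The list was taken from the study's table of genes that changed in these same libraries, so it was selected for change, and these counts are no independent evidence of direction. Under every alternative analysis with all 12 genes tested, 10 were monotone rising, and with a minimum mean of 50 counts 8 of 9 were.

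*TDH3* encodes glyceraldehyde-3-phosphate dehydrogenase. Its level, in TMM-scaled CPM (the counts of a gene relative to the scaled total of its library), was 166, 171 and 145 in the *Δcra1* libraries, 1003, 893 and 969 in the control libraries and 7968, 2294 and 3659 in OE replicates 1, 2 and 3. The strains did not overlap, and the level rose with a slope of 2.43 ± 0.20 on the log2 scale per step (± SE, here and below; adjusted p = 8.3e-07), made of a first step of 2.57 ± 0.39 and a second of 2.29 ± 0.34. *ENO1*, which encodes enolase, was at 78.2, 104 and 70.4 CPM in the *Δcra1* libraries, 854, 534 and 669.7 in the control and 7016, 1911 and 3334 in the OE libraries. Its order was equally free of overlap, with a slope of 2.80 ± 0.22 (adjusted p = 7.6e-07) and steps of 3.03 and 2.58. The steepest slope of the list belonged to *GPM1*, phosphoglycerate mutase, which was at 19.5, 0 and 30.8 CPM without *CRA1*, 179, 175 and 227 CPM in the control and 4059.9, 578 and 1539 CPM in the OE libraries. Its steps were 3.40 ± 0.91 and 3.43 ± 0.59, so the fitted difference between them was small against its error (departure -0.01 ± 0.55, adjusted p = 0.99).

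The median steps of the list were 1.55 and 2.60. The fitted second step was the larger in *TPI1*, *CDC19*, *PGI1*, *PFK2*, *FBA1-1* and *PGK1*. *TPI1*, triose phosphate isomerase, was at 48.9, 51.8 and 44 CPM in the *Δcra1* libraries and 109, 92.4 and 92.7 CPM in the control, and reached 1177, 509.7 and 658 CPM with *CRA1* overexpression. *CDC19*, pyruvate kinase, was at 249, 207 and 273 CPM, then 407, 359 and 412 CPM, then 4043, 1323 and 1864 CPM. For both genes the strains did not overlap, and the first steps were 1.02 ± 0.42 and 0.69 ± 0.37, against a slope of 2.01 ± 0.17 per step in *TPI1* (adjusted p = 1.1e-06) and a second step of 2.63 ± 0.34 in *CDC19*. The departure of *CDC19* was -0.97 ± 0.32 (adjusted p = 0.0499) and that of *TPI1* -0.99 ± 0.34 (adjusted p = 0.0604), neither of which reached the 2-fold call. Aldolase *FBA1-1* rose with a slope of 2.34 ± 0.23 and steps of 1.67 and 3.01, and phosphoglycerate kinase *PGK1* with a slope of 2.33 ± 0.24 and steps of 1.84 and 2.82. The phosphofructokinase subunit *PFK2* rose with a slope of 2.22 ± 0.27 and a first step of 1.43, and phosphoglucose isomerase *PGI1* with a slope of 1.58 ± 0.24 and steps of 0.63 and 2.53 (adjusted p of the slopes between 5.6e-06 and 0.00028). Glucokinase *GLK1* rose too, with a slope of 1.72 ± 0.24 (adjusted p = 0.00012), but OE replicate 2 at 127 CPM lay below the control libraries at 199, 184.8 and 237 CPM.

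The subunits of phosphofructokinase parted. *PFK1*, the alpha subunit in *S. cerevisiae*, was highest without *CRA1*, at 1349, 1258 and 1135 CPM, lowest in the control, at 109, 103 and 92.7 CPM, and intermediate with overexpression, at 884, 245 and 596 CPM. All 6 libraries of the altered strains lay above all control libraries, the departure was -3.07 ± 0.37 (adjusted p = 0.00017), and the slope of -0.54 ± 0.15 was negative and passed the test (adjusted p = 0.016). *PFK2*, the beta subunit, was at 29.3, 46.6 and 57.2 CPM, 109, 113 and 144 CPM and 1796, 304 and 797 CPM in the same order of strains and was monotone rising. The isoenzymes that phosphorylate glucose parted as well. *HXK1* was at 142, 254 and 149.6 CPM in the *Δcra1*, 79.5, 82.1 and 92.7 CPM in the control and 777, 186 and 534 CPM in the OE libraries, a departure of -1.83 ± 0.45 (adjusted p = 0.016) that was lost when any 1 of the 3 control libraries was left out, while *GLK1* rose.

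In all 12 glycolytic genes the OE libraries kept the order replicate 1, replicate 3, replicate 2, which was also the order of their *CRA1* counts and of their total counts. Over all tested genes this order occurred in 28.7%. The summed share of the 12 genes was 0.245% to 0.248% of the counts in the *Δcra1* libraries and 0.299% to 0.408% in the control libraries, and it was 3.53%, 0.939% and 1.85% in OE replicates 1, 2 and 3. Within the OE strain the spread was thus several-fold, and whether it follows the *CRA1* dose or the depth was not tested. Per length, *TDH3* had a mean of 607 TPM (counts per effective length, as a share of the library) in the control, at rank 271 of 5340 genes, and stood at rank 16 in the OE strain. Whether the counts hold reads of both strands is not given in the sources used here.

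**Figure D2:**
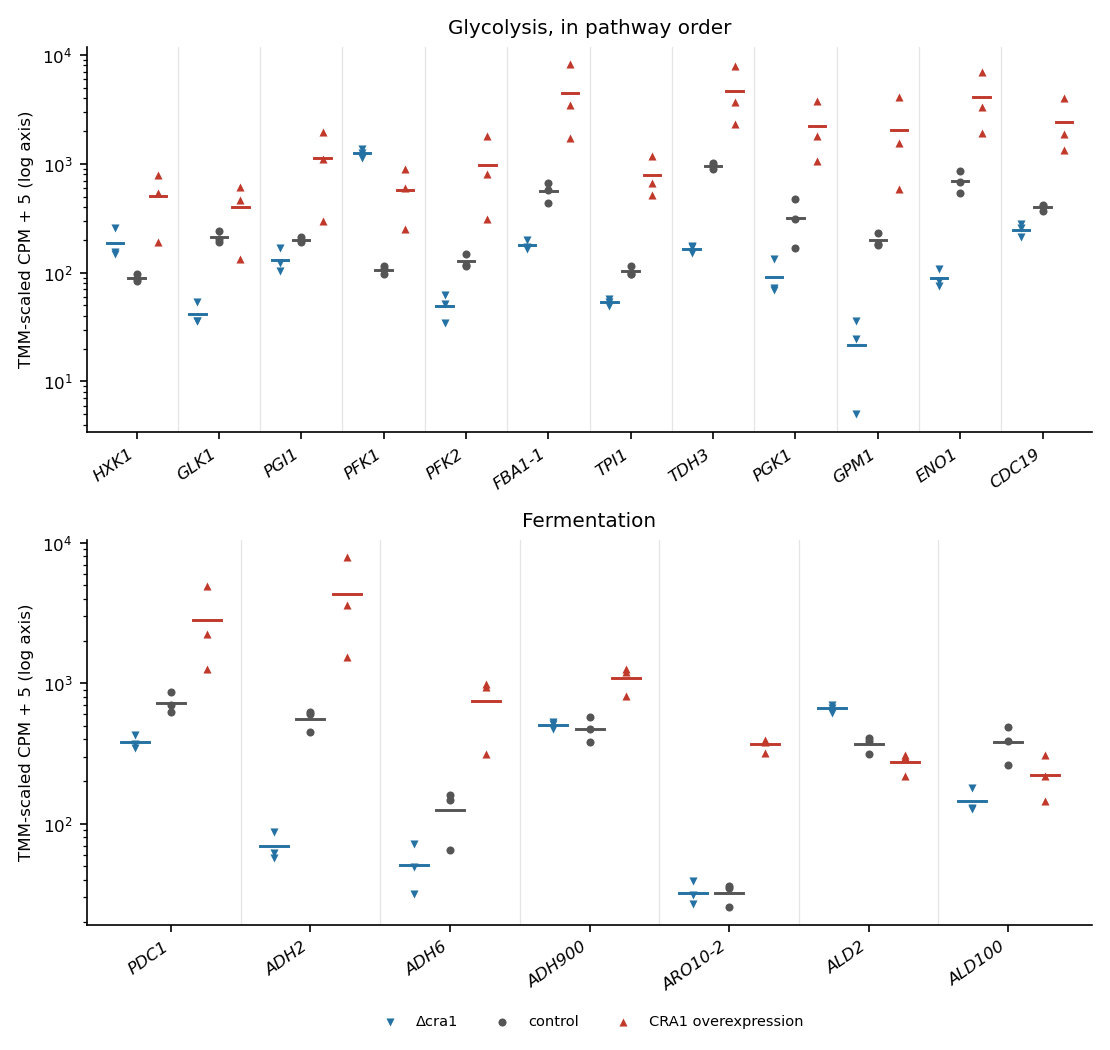
Level of each glycolytic (upper panel, in pathway order) and fermentative gene (lower panel) in every library, as TMM-scaled CPM plus 5 on a log axis, with 3 libraries per strain as points and their mean as a bar. *GPM1*, *ENO1*, *TDH3* and *ADH2* climb through both steps, whereas *PFK1* is highest in the *Δcra1* strain and lowest in the control.

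The 7 genes listed here as fermentative did not share a single shape, and the list also held genes outside the path from pyruvate to ethanol. *PDC1* and *ADH2*, the fermentative genes named by the study, were both monotone rising. Of 7 listed and tested genes, 3 were monotone rising, 1 was monotone falling, 1 was higher and 1 lower in both altered strains, and 1 had a trend with the control outside. Over all tested genes these classes held 8.17%, 4.42%, 6.71%, 2.44% and 2.96%. With thinned libraries or without control replicate 2, 5 of the 7 were monotone rising. The alcohol dehydrogenase gene *ADH2* was at 83.1, 51.8 and 57.2 CPM in the *Δcra1*, 616, 441 and 598 CPM in the control and 7866, 1529 and 3628 CPM in the OE libraries. No strains overlapped, and the steps of 3.09 ± 0.55 and 2.98 ± 0.44 were alike in size (slope 3.04 ± 0.27, adjusted p = 1.6e-06). *PDC1*, pyruvate decarboxylase, rose from 342, 362 and 427 CPM through 864, 616 and 690.3 CPM to 4910.2, 1265 and 2220.0 CPM, also free of overlap, with a slope of 1.45 ± 0.19 (adjusted p = 6.4e-05). *ADH6*, an NADPH-dependent alcohol dehydrogenase, rose with a slope of 2.00 ± 0.24 (adjusted p = 3.1e-05), although its *Δcra1* and control libraries overlapped.

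The aldehyde dehydrogenase genes *ALD2* and *ALD100* went other ways than *PDC1* and *ADH2*. *ALD2*, which oxidizes aldehydes in the cytosol of *S. cerevisiae*, fell with dose, from 665, 694 and 611 CPM through 308, 400.4 and 381 CPM to 214, 304 and 294 CPM. Its strains did not overlap, and the slope was -0.65 ± 0.10 (adjusted p = 0.00036). *ALD100*, annotated as a putative methylmalonate-semialdehyde dehydrogenase, was highest in the control, with a departure of 1.09 ± 0.28 (adjusted p = 0.019). Its OE libraries at 214, 304 and 139 CPM overlapped the control libraries at 258, 483 and 381 CPM. The call was lost without control replicate 2 or 3 or *Δcra1* replicate 3. *ARO10-2*, a decarboxylase of phenylpyruvate in the class higher in both, differed mainly in the OE strain, at 34.2, 25.9 and 22 CPM without *CRA1*, 29.8, 20.5 and 30.9 CPM in the control and 315, 392.1 and 379 CPM in the OE libraries. Since no control library held more than 3 counts of it, the OE strain was at least 11.9-fold higher, against a floor of 3 counts per library. *ADH900*, annotated as related to formaldehyde dehydrogenase, rose between the *Δcra1* and OE strains (slope 0.56 ± 0.10, adjusted p = 0.001). Its control libraries overlapped the *Δcra1* libraries, and the call of its trend was lost under library totals and with limma on log2(TPM + 1).

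The entry of pyruvate into respiration and the pentose phosphate pathway were measured at lower counts. Of 8 genes of the pyruvate dehydrogenase complex and TCA cycle, 4 were monotone rising, against 8.17% of all tested genes, and all 4 were subunits of the complex. None was monotone falling, higher or lower in both, but 4 of the 8 were higher in both without OE replicate 2. Another 3 had a trend with the control outside, against 2.96% of all tested genes, and 1 of these 3 trends fell. *PDB1*, the E1 beta subunit, was at 14.7, 41.4 and 30.8 CPM, 89.4, 133 and 72.1 CPM and 428, 157 and 193 CPM from the lowest to the highest dose. *LAT1*, the acetyltransferase subunit, was at 68.4, 36.2 and 26.4 CPM, 119, 71.9 and 134 CPM and 473, 206 and 302 CPM. Neither gene overlapped between strains, and their slopes were 1.58 ± 0.25 (adjusted p = 0.0003) and 1.46 ± 0.21 (adjusted p = 0.00017). *PDA1* and *PDX1* rose with slopes of 1.10 ± 0.24 and 0.71 ± 0.17, calls that limma on log2(TPM + 1) did not make.

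Of 5 pentose phosphate genes, 3 were monotone rising, against 8.17% of all tested genes, and 1 with limma on log2(TPM + 1) or log2(TPM + 0.1). Transketolase *TKL1* rose with a slope of 1.21 ± 0.19 (adjusted p = 0.0003), although control and *Δcra1* libraries overlapped. The 2 transaldolase genes fell into different classes. *TAL1-1* rose with a slope of 1.23 ± 0.28 (adjusted p = 0.0047), but its libraries overlapped at both steps. They were at 78.2, 104 and 110 CPM without *CRA1*, 189, 51.3 and 206 in the control and 957, 127 and 480 with overexpression. *TAL1-2* was highest in the control, at 99.3, 113 and 103 CPM. It was at 24.4, 31.1 and 22 CPM without *CRA1* and 45, 39.2 and 30.9 CPM with overexpression. Its call was lost without any 1 of the control libraries. *TAL1-2* and *ZWF1* passed the count filter through no more than 1 strain on its own. Reads of the 2 transaldolase genes, *TAL1-1* and *TAL1-2*, may be split between them by the counting. *ZWF1*, glucose-6-phosphate dehydrogenase at the entry of the oxidative branch, fell with a slope of -1.20 ± 0.30 (adjusted p = 0.0099), from 108, 176 and 167 CPM through 59.6, 30.8 and 61.8 CPM to 56.3, 0 and 15.5 CPM.

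The genes of thiamine and pyridoxine use resembled glycolysis in shape. Of 7 genes, 6 were monotone rising, against 8.17% of all tested genes, and 1, *SNO1*, was in no class. *THI20*, a trifunctional enzyme of thiamine biosynthesis, was at 29.3, 41.4 and 52.8 CPM, 169, 154 and 206 CPM and 1030.5, 363 and 665 CPM from the lowest to the highest dose, with nearly equal steps of 2.07 ± 0.44 and 1.98 ± 0.35 and no overlap (slope 2.02 ± 0.19, adjusted p = 3.9e-06). *THI4*, thiazole synthase, was at 176, 207 and 251 CPM, 765, 616 and 525 CPM and 4279.5, 1196 and 2011 CPM, likewise without overlap (slope 1.78 ± 0.19, adjusted p = 1.1e-05). The pyridoxine transporter *TPN1* rose with a slope of 2.12 ± 0.25 (adjusted p = 2.8e-05). *THI7*, the thiamine transporter, bent instead: its first step of 2.41 ± 0.32 exceeded its second of 0.70 ± 0.27 (departure 0.85 ± 0.25, adjusted p = 0.035), and OE replicate 3 at 379 CPM lay within the control range of 258, 390.2 and 361 CPM. This list too came from genes that changed in these libraries.

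The 5 named genes with the smallest p-values among the monotone rising genes without overlap, *BRF1*, *REV1*, *HID1*, *MGR3* and *ENA2*, lay outside carbon metabolism, and their steps were unequal. *REV1*, a DNA polymerase of translesion synthesis, was at 151, 176 and 189 CPM in the *Δcra1*, 3675, 4004 and 4080.2 CPM in the control and 7675, 10498 and 8865 CPM in the OE libraries. The strains stood far apart, and the first step of 4.50 ± 0.20 was much larger than the second of 1.20 ± 0.17 (departure 1.65 ± 0.15, adjusted p = 1e-05). *PRP2*, an RNA helicase of the spliceosome, was at 9.77, 20.7 and 22 CPM without *CRA1* and at 1252, 1263 and 1834 CPM in the control, and the OE libraries at 1363, 2343 and 2127 CPM overlapped the control. Its steps were 6.30 ± 0.35 and 0.42 ± 0.23. *URK1*, uridine kinase, had the same shape, at 58.6, 46.6 and 66 CPM, 1142, 1478 and 1391 CPM and 1368, 1706 and 1717 CPM, with steps of 4.52 ± 0.22 and 0.25 ± 0.17.

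*ENA2*, *MGR3* and *HID1* also had a larger first step. *ENA2*, a sodium pump, was at 103, 228 and 119 CPM, 2443, 2587 and 2926 CPM and 3536, 6509 and 7155 CPM from the lowest to the highest dose. *MGR3*, a subunit of a mitochondrial protease complex, was at 48.9, 77.7 and 70.4 CPM, 1093, 1201 and 938 CPM and 1988, 3284 and 3032 CPM. *HID1*, annotated for cell wall biogenesis, was at 88, 62.1 and 83.6 CPM, 1003, 986 and 958 CPM and 2472, 2627 and 2545 CPM. In all 3 genes the strains did not overlap, and the departures of 1.52 ± 0.24, 1.33 ± 0.20 and 1.13 ± 0.14 passed the test (adjusted p = 0.0011, 0.00075 and 0.00028). Unlike in glycolysis, OE replicate 1 was the lowest OE library of *REV1*, *PRP2*, *URK1*, *ENA2*, *MGR3* and *HID1*.

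In *TCP1*, *GAT1*, *SAK1* and *BRF1* the fitted second step was the larger. Each of these 4 genes passed the count filter through no more than 1 strain on its own, and each was highest in the OE strain, so they were tested because of their level there. *TCP1*, a subunit of the cytosolic chaperonin, was at 39.1, 82.8 and 52.8 CPM in the *Δcra1*, 79.5, 71.9 and 51.5 CPM in the control and 1526, 2009.5 and 1524 CPM in the OE libraries. The 2 lower doses overlapped, and the second step was 4.62 ± 0.28 against a first step of 0.23 ± 0.37 (departure -2.20 ± 0.30, adjusted p = 0.00044). *GAT1*, a GATA-type activator of nitrogen use, was at 83.1, 67.3 and 48.4 CPM, 109, 71.9 and 92.7 CPM and 1306, 1813 and 1826 CPM, with steps of 0.47 ± 0.33 and 4.16 ± 0.26. *SAK1*, a kinase upstream of Snf1, had steps of 0.40 ± 0.37 and 3.01 ± 0.31 and OE libraries at 484, 696 and 735 CPM, all above the 79.5, 71.9 and 82.4 CPM of the control. *BRF1*, a subunit of the RNA polymerase III initiation factor TFIIIB, was at 4.89, 5.18 and 8.80 CPM, 29.8, 51.3 and 20.6 CPM and 2438, 2960.3 and 2862 CPM. Its *Δcra1* libraries held at most 3 counts each, so that the OE strain was at least 190-fold higher. The control libraries held 3, 5 and 2 counts, so its first step rests on counts near the floor.

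Of the 218 monotone rising genes, 72 passed the count filter through no more than 1 strain on its own, which was the case for 862 of the 2668 tested genes, and 11 had a strain with at most 3 counts in every library. The former included *PDB1*, *LAT1*, *ADH6*, *DOG1*, *PUT4-1*, *KSS1*, *FRE3*, *LEU2* and *PP7435_Chr1-0718* beside the 4 genes above, so each entered the test through a single strain. Among the latter, *DOG1*, a phosphatase of 2-deoxyglucose-6-phosphate, was at 0, 10.4 and 4.40 CPM without *CRA1*, 69.5, 133 and 92.7 CPM in the control and 794, 137 and 487 CPM with overexpression. The strains did not overlap, and the OE strain was at least 32.7-fold and the control at least 6.82-fold above the *Δcra1* floor. *ACS2*, acetyl-CoA synthetase, was at least 27.5-fold higher in the OE strain and at least 9.58-fold higher in the control than that floor, with OE libraries at 709, 157 and 325 CPM that overlapped the control at 169, 144 and 103 CPM. The proline permease *PUT4-1* had at most 3 counts in every library of both lower doses, and its OE libraries at 203, 422 and 410.0 CPM were at least 23.8-fold above the *Δcra1* floor and 11.3-fold above the control floor.

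The monotone falling genes were fewer and changed less. *ERG27*, a sterol reductase of ergosterol synthesis, was at 1051, 979 and 1056 CPM in the *Δcra1*, 377, 503 and 443 CPM in the control and 355, 343 and 302 CPM in the OE libraries. *HEM15*, ferrochelatase of heme synthesis, was at 1662, 1626 and 1689 CPM, 665, 1006 and 917 CPM and 597, 608 and 603 CPM. Both fell without overlap, with slopes of -0.81 ± 0.09 (adjusted p = 1.2e-05) and -0.73 ± 0.09 (adjusted p = 2.6e-05). *SKI3*, part of the Ski complex of cytoplasmic RNA decay, was at 4247, 4184 and 3769.6 CPM, 2006, 2259 and 2514 CPM and 935, 1696 and 1191 CPM, with steps of -0.85 ± 0.20 and -0.84 ± 0.21 that were nearly equal. *ADY2-2*, an acetate transporter, had the steepest fall among the 8 named falling genes without overlap, from 229.7, 186 and 176 CPM through 69.5, 113 and 72.1 CPM to 22.5, 19.6 and 15.5 CPM (slope -1.64 ± 0.21, adjusted p = 6.2e-05). It passed the count filter through no more than 1 strain on its own and was highest in the *Δcra1* strain, so it was tested because of its level there. Of the 118 monotone falling genes, 19 passed the filter through no more than 1 strain, among them *ZWF1* and *TFC3*, against 862 of all 2668 tested genes.

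Other falling genes served lipid and vitamin metabolism and RNA processing. *TML1*, trimethyllysine dioxygenase of carnitine synthesis, fell with a slope of -1.07 ± 0.14 and *CAB1*, pantothenate kinase of coenzyme A synthesis, with -0.54 ± 0.08. The vacuolar amino acid transporter *YPQ2* had a slope of -0.64 ± 0.08 and the RNA exonuclease *REX3* -0.60 ± 0.09. None of these 4 overlapped between strains, and their adjusted p-values lay between 3.7e-05 and 0.00018. For *CAB1* the call was lost when libraries were thinned to the smallest total. *PP7435_Chr3-1161*, with low similarity to *S. cerevisiae* *SKG3*, fell almost wholly at the first step, from 2439, 2268 and 2336 CPM to 149, 154 and 144 CPM in the control, and stayed at 169, 167 and 92.8 CPM with overexpression (steps -3.97 ± 0.22 and -0.06 ± 0.26).

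Genes higher in both altered strains included transporters, histone genes and 1 of the 4 tested genes of RNA polymerase III and its factors. The zinc transporter *ZRT3* was at 816, 906 and 862 CPM in the *Δcra1*, 199, 236 and 247 CPM in the control and 394, 499.9 and 627 CPM in the OE libraries. *MEP1*, an ammonium permease, was at 254, 305 and 242 CPM, 39.7, 51.3 and 61.8 CPM and 394, 108 and 302 CPM. In both genes all libraries of the altered strains lay above the control, with departures of -1.53 ± 0.20 (adjusted p = 0.00036) and -2.40 ± 0.43 (adjusted p = 0.0031). The slope of *MEP1* was 0.02 ± 0.17 (adjusted p = 0.93), so the altered strains were not told apart. *PIC2*, a mitochondrial phosphate carrier, departed by -1.21 ± 0.22 (adjusted p = 0.0031), a call that was lost without control replicate 2, and *PRM10-2*, annotated as pheromone-regulated, by -1.65 ± 0.29 (adjusted p = 0.0028).

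In some of these genes an altered strain exceeded the other by far. *RET1*, the second-largest subunit of RNA polymerase III, was higher with overexpression, at 389, 255 and 317 CPM against 73.3, 93.2 and 96.8 CPM in the *Δcra1* and 49.7, 30.8 and 41.2 CPM in the control libraries. *VTS1*, an RNA-binding protein of mRNA decay, was higher without *CRA1*, at 1427, 979 and 959 CPM against 56.3, 29.4 and 85.1 CPM with overexpression and 19.9, 0 and 20.6 CPM in the control. The control libraries of *VTS1* held at most 3 counts, so the *Δcra1* strain was at least 36.8-fold higher. Its OE libraries held 10, 3 and 11 counts, so OE replicate 2 lay at that floor. The lectin-like gene *FLO400*, with control libraries at the same floor, was at least 13.3-fold higher in the *Δcra1* and at least 2.66-fold higher in the OE strain. *PP7435_Chr1-1547*, similar to an ABC transporter, was at 3650.5, 2987 and 3321 CPM without *CRA1*, 209, 236 and 237 CPM in the control and 304, 422 and 387 CPM with overexpression, and passed both tests (slope -1.59 ± 0.09, adjusted p = 1.6e-08, and departure -2.28 ± 0.18, adjusted p = 4.8e-06). Over the 179 genes the OE strain was the higher altered strain in 95 and the *Δcra1* strain in 84.

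Low counts and a fixed order of the OE libraries were more frequent in this class than among all tested genes. Of its 179 genes, 93 passed the count filter through no more than 1 strain on its own and 43 had a strain with at most 3 counts in every library, against 89 of all 2668 tested genes. The named genes that passed through no more than 1 strain were *VTS1*, *FLO400*, *ARO10-2*, *HGT2*, *HSP12*, *ERG3*, *CTA1*, *HHO1*, *HTA2* and *HHT2*. In 112 genes (62.6%) the OE libraries followed the order replicate 1, replicate 3, replicate 2, against 28.7% of all tested genes, 33.0% of the monotone rising and 3.08% of the genes lower in both. That is the order of total counts and of *CRA1* counts alike. With all libraries thinned to 106272 counts, 139 genes were in the class, 129 of them shared with the 179. Without OE replicate 2, with 3200 genes tested, the class grew to 473 genes. Without control replicate 1, 2 or 3 it held 78, 41 or 56 of 3218, 3234 or 3225 tested genes.

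The histone genes all fell into this class, 4 of 4 that were listed and tested, against 6.71% of all tested genes. *HTA2*, histone H2A, was at 410.5, 927 and 963 CPM in the *Δcra1*, 99.3, 103 and 51.5 CPM in the control and 1166, 49 and 271 CPM in the OE libraries, where replicate 2 lay below the control. The linker histone gene *HHO1* was at 122, 171 and 202 CPM, 0, 41.1 and 20.6 CPM and 129.5, 58.8 and 85.1 CPM, with no overlap between the control and the altered strains. The departures were -2.89 ± 0.75 (adjusted p = 0.021) and -2.57 ± 0.60 (adjusted p = 0.013). Histone H3 *HHT2* and histone H4 *HHF1* departed by -1.23 ± 0.36 and -1.57 ± 0.48 (adjusted p = 0.034 and 0.0414). With limma on log2(TPM + 1), or without control replicate 3, none of the 4 was in the class, without control replicate 2 it held 1, and without control replicate 1, *Δcra1* replicate 2 or *Δcra1* replicate 3, or with thinned libraries, it held 2. Reads of near-identical histone copies may be split between them.

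Genes lower in both altered strains seldom rested on low counts, and most of them were lowest in the *Δcra1* strain. *UIP4*, whose *S. cerevisiae* product interacts with the SUMO protease Ulp1, was at 630.4, 606 and 488 CPM in the *Δcra1*, 5850.3, 5780.5 and 5008 CPM in the control and 2787, 4293 and 3667 CPM in the OE libraries. No altered library reached the control, the departure was 1.95 ± 0.15 (adjusted p = 4.8e-06) and the slope of 1.32 ± 0.10 passed the test too (adjusted p = 3.7e-07). *TFB2*, a subunit of the general transcription factor TFIIH, was at 274, 238 and 216 CPM, 814, 904 and 979 CPM and 462, 490.1 and 418 CPM. *ASP1*, cytosolic asparaginase, was at 215, 150.2 and 141 CPM, 805, 996 and 783 CPM and 450.5, 402 and 271 CPM. Both were highest in every control library, with departures of 1.43 ± 0.15 (adjusted p = 9.8e-05) and 1.77 ± 0.20 (adjusted p = 0.00013).

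The same shape was found in regulators and in genes of cell wall, autophagy and uptake. *SOK2*, a regulator of filamentous growth, was at 97.7, 104 and 110.0 CPM without *CRA1*, 427, 575 and 443 CPM in the control and 225, 284 and 239.8 CPM with overexpression. *KRE5-2*, needed for beta-glucan synthesis, was at 44, 67.3 and 61.6 CPM, 338, 503 and 453 CPM and 95.7, 137 and 217 CPM. *ATG2*, needed to form autophagosomes, departed by 2.08 ± 0.28 (adjusted p = 0.00047), the riboflavin transporter *MCH5-1* by 1.55 ± 0.21 (adjusted p = 0.00052) and *FRE8*, similar to iron reductases, by 1.63 ± 0.19 (adjusted p = 0.00014). None of these 5 overlapped between the control and the altered strains. *POX1*, acyl-CoA oxidase of fatty acid breakdown, was at 132, 135 and 92.4 CPM, 904, 821 and 876 CPM and 535, 872 and 673 CPM, with OE replicate 2 within the control range and a departure of 1.60 ± 0.19 (adjusted p = 0.00016). In 53 of the 65 genes the *Δcra1* strain was the lower of the altered strains, and 13 had passed the filter through no more than 1 strain on its own. Without OE replicate 2 the class held 108 genes.

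**Figure D3:**
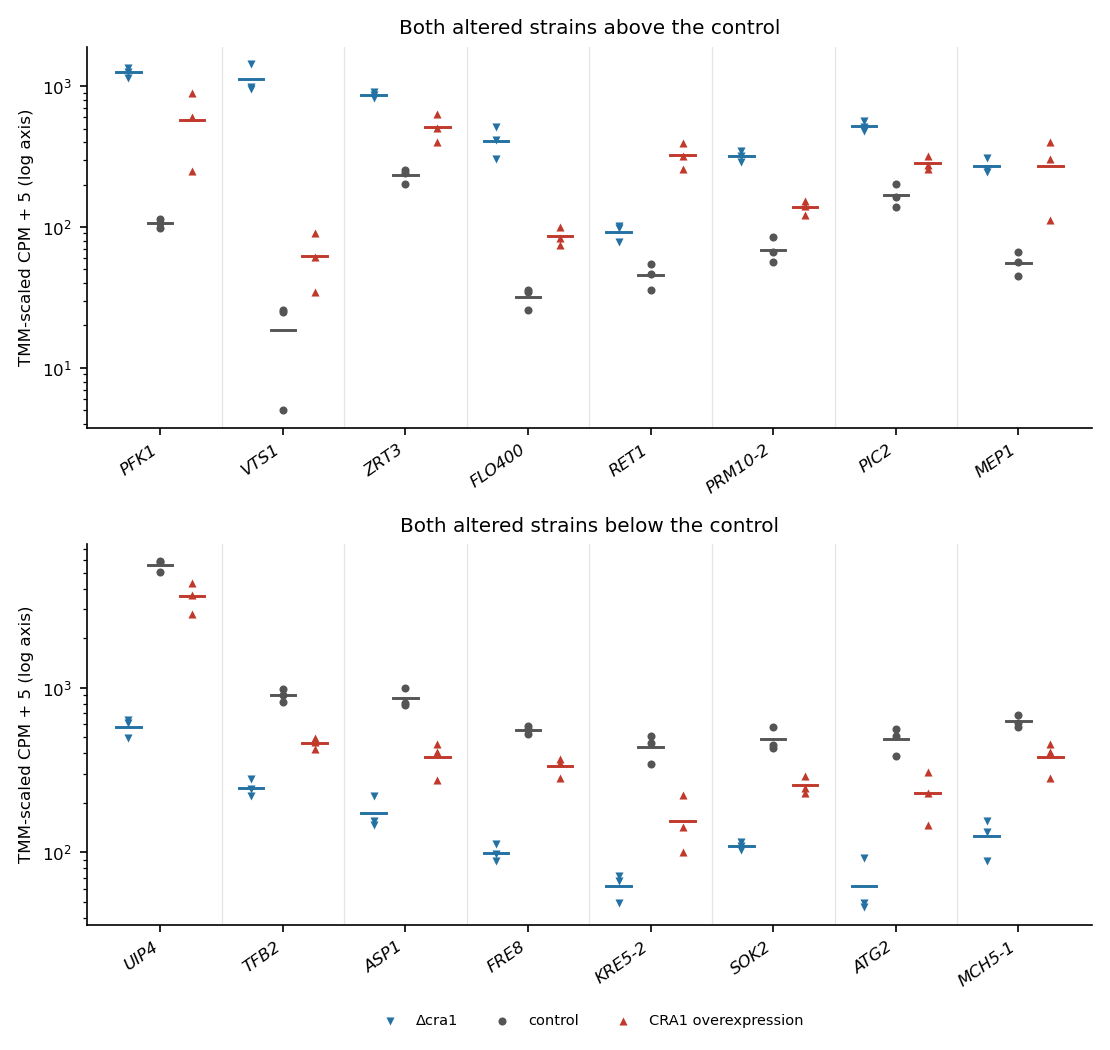
Level of 8 named genes above the control in both altered strains (upper panel) and 8 below it (lower panel) in every library, as TMM-scaled CPM plus 5 on a log axis, with 3 libraries per strain as points and their mean as a bar. *RET1* is highest with overexpression, *VTS1* and *FLO400* are highest in the *Δcra1* strain, and for all 8 genes of the lower panel the *Δcra1* strain is lowest.

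The remaining lists mixed the classes. All lists were drawn from the study's table of genes that changed in at least 1 comparison of these libraries, so their counts stand above those of all genes by selection. Over all 2668 tested genes, 8.17% were monotone rising, 4.42% falling, 6.71% higher and 2.44% lower in both, and the counts below are to be read beside these shares. Of 19 ribosomal protein genes, 7 were monotone rising and 3 higher in both altered strains, and none was falling or lower in both. The 3 higher in both became 0 with limma on log2(TPM + 1) and without control replicate 2 or 3 or *Δcra1* replicate 2 or 3, and 9 without OE replicate 2. *RPS20*, a protein of the small subunit, rose with a slope of 0.67 ± 0.14 (adjusted p = 0.0029), with *Δcra1* libraries at 156, 129 and 158 CPM below the 338, 277 and 196 CPM of the control. Its OE libraries at 501, 294 and 325 CPM overlapped the control. In 17 of the 19 genes the OE libraries followed the order of depth and *CRA1* counts named above. With limma on log2(TPM + 1) 1 of the 19 was monotone rising, without OE replicate 1 there were 2, and with library totals or without *Δcra1* replicate 1 there were 4. *RPS26B* was the most abundant of them, at 43366, 48975 and 41914 CPM in the *Δcra1*, 87675, 109839 and 93464 CPM in the control and 65110.4, 93437 and 64087 CPM in the OE libraries, with a departure of 0.75 ± 0.19 (adjusted p = 0.019) below the 2-fold call.

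Of 14 chaperone genes, 5 were monotone rising and 5 higher in both altered strains, against 8.17% and 6.71% of all tested genes. Of those higher in both, the list held 1 without any 1 of the control libraries and with limma on log2(TPM + 1), and 2 with the replicate block and without *Δcra1* replicate 2 or 3. Rising genes numbered 2 with limma and 3 without OE replicate 1 or *Δcra1* replicate 1. Against *TCP1*, the mitochondrial chaperonin *HSP60* was highest without *CRA1*, at 582, 642 and 501 CPM, 169, 154 and 134 CPM in the control and 372, 167 and 239.8 CPM with overexpression (departure -1.35 ± 0.27, adjusted p = 0.006). *HSP12*, a membrane protein of the stress response, was at 239, 197 and 329.9 CPM without *CRA1*, while its control libraries at 29.8, 41.1 and 20.6 CPM and OE libraries at 61.9, 39.2 and 15.5 CPM overlapped. Of 11 nitrogen source genes, 3 were monotone rising, 1 falling and 5 higher in both altered strains, the last of which fell to 1 with limma on log2(TPM + 1) and without control replicate 2 or 3. The urea transporter *DUR3-1* was at 166, 67.3 and 132 CPM, 288, 226 and 227 CPM and 895, 1568 and 1516 CPM, with no overlap and a slope of 1.71 ± 0.15 (adjusted p = 1.6e-06). *GAT1*, *DUR3-1* and *PUT4-1* made up the 3 rising genes, with OE replicate 1 lowest among the OE libraries in each.

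Genes of acetate, lactate, glycerol and fatty acid use were spread over all classes, 4 rising, 2 falling, 4 higher and 2 lower in both among 13 tested. Beside *ACS2*, the dihydroxyacetone kinase gene *DAK2* rose with steps of 1.48 ± 0.18 and 0.31 ± 0.17, and the fatty acyl-CoA synthetase *FAT1* with a slope of 1.05 ± 0.11 (adjusted p = 6.2e-06). In glucose sensing and repression 3 of 7 tested genes rose, 1 fell and 2 were higher in both, the last of which became 0 with limma on log2(TPM + 1) and without control replicate 2 or 3 or *Δcra1* replicate 1 or 3. *RGI2*, involved in respiratory energy metabolism, rose with a slope of 1.04 ± 0.14 (adjusted p = 0.00011). The glucose sensor or transporter *HGT2* was at least 6.20-fold higher in the *Δcra1* strain than the control floor, and its OE level was close to that floor. Of 6 methanol and peroxisome genes, 1 fell, 1 was higher and 2 were lower in both. Catalase *CTA1* was at 176, 269 and 295 CPM without *CRA1* and at most at 56.3 CPM in the OE libraries, and the *Δcra1* strain was at least 8.09-fold above the control floor. *PEX22*, a peroxisomal membrane protein, fell with a slope of -0.53 ± 0.08 (adjusted p = 0.00029).

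In mating and sporulation 4 of 8 tested genes rose, 3 fell and 1 was higher in both, and the rising genes numbered 2 under library totals, with no filter or without OE replicate 2 and 1 with limma on log2(TPM + 1). *MATalpha2*, the alpha mating-type regulator, fell from 489, 456 and 413 CPM without *CRA1* to 109, 113 and 92.7 CPM in the control and 56.3, 29.4 and 100.6 CPM with overexpression, where control and OE libraries overlapped (slope -1.41 ± 0.16, adjusted p = 2.2e-05). *KSS1*, a MAP kinase of filamentous growth and the pheromone response, rose without overlap, from 24.4, 15.5 and 30.8 CPM through 59.6, 92.4 and 61.8 CPM to 304, 353 and 271 CPM (slope 1.82 ± 0.19, adjusted p = 6.7e-06). Chitin deacetylase *CDA2* rose (slope 0.66 ± 0.10) and *SPS22* fell (slope -0.57 ± 0.09), each with overlapping control and OE libraries. Of 4 tested genes of RNA polymerase III, *BRF1* rose, *RET1* was higher in both, and the TFIIIC subunits *TFC7* and *TFC3* fell with slopes of -0.94 ± 0.14 (adjusted p = 0.0002) and -0.98 ± 0.29 (adjusted p = 0.022). The call of *TFC3* was lost without OE replicate 3 or *Δcra1* replicate 1 or 3.

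Sterol synthesis held 2 rising genes, 1 falling and 1 higher in both among 5 tested. *ERG2*, a sterol isomerase, was at 53.8, 57 and 35.2 CPM, 278, 298 and 278 CPM and 355, 569 and 712 CPM, with no overlap (slope 1.73 ± 0.16, adjusted p = 2.6e-06), opposite to *ERG27*. *ERG24*, a sterol reductase, rose with a slope of 0.66 ± 0.15 (adjusted p = 0.0058), and the desaturase *ERG3* was at least 3.94-fold higher in the *Δcra1* and 4.01-fold higher in the OE strain than the control floor, with a departure that was lost without control replicate 2 or 3. Of 6 genes of iron, manganese and zinc transport, 3 were higher and 1 lower in both, and 1 rose. Without control replicate 2 or 3, 1 was higher in both. The ferric reductase *FRE3* rose (slope 1.06 ± 0.19, adjusted p = 0.00089), and the metal transporter *SMF1* departed by -1.42 ± 0.29 (adjusted p = 0.0064), a call lost without control replicate 2 or 3. In mitochondrial respiration 3 of 9 genes were higher in both, 1 rose and 1 fell. None was higher in both without control replicate 2 or with limma on log2(TPM + 1), 1 was without control replicate 1 or 3 or *Δcra1* replicate 3, and 7 were without OE replicate 2. Cytochrome b *COB* was at 816, 1652 and 1522 CPM, 318, 144 and 155 CPM and 2117, 196 and 1021 CPM, with OE replicate 2 inside the control range and a departure of -2.57 ± 0.58 (adjusted p = 0.012) that was lost without control replicate 2. *BCS1*, which assembles complex III, fell with a slope of -0.50 ± 0.11 (adjusted p = 0.0044), a call lost with DESeq2 and without OE replicate 1 or 3 or *Δcra1* replicate 1.

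In amino acid metabolism 14 of 40 tested genes were monotone rising, 3 falling, 8 higher and 1 lower in both, against 8.17%, 4.42%, 6.71% and 2.44% of all tested genes. Scaled by library totals, 8 were rising and 9 higher in both, and with limma on log2(TPM + 1) 7 and 2. The genes higher in both numbered 2 without control replicate 2, 3 without control replicate 3, 5 without *Δcra1* replicate 1 or 3 and 20 without OE replicate 2. *MRI1*, of the methionine salvage pathway, rose with steps of 2.11 ± 0.34 and 0.49 ± 0.30, and *LEU2*, of leucine synthesis, with steps of 0.15 ± 0.40 and 2.17 ± 0.36 (slopes 1.30 ± 0.16 and 1.16 ± 0.17, adjusted p = 4.5e-05 and 0.00015). Transcription factors were spread over all classes, 9 rising, 10 falling, 10 higher and 6 lower in both among 41 tested, beside the same shares of all tested genes. The 10 higher in both became 3 without any 1 of the control libraries or without *Δcra1* replicate 2 or 3, and 4 with limma on log2(TPM + 1), where 5 were falling and 2 lower in both. *PP7435_Chr1-0718*, a RING finger protein in that list, changed with overexpression, from 14.7, 20.7 and 26.4 CPM and 19.9, 61.6 and 10.3 CPM at the lower doses to 552, 921 and 905 CPM. *PP7435_Chr3-0715*, with a regulatory domain shared by Gal4 and other fungal transcription factors, was lower in both altered strains, at 591, 544 and 462 CPM without *CRA1*, 2126, 2444 and 2648 CPM in the control and 1526, 2108 and 2034 CPM with overexpression (departure 1.26 ± 0.15, adjusted p = 0.00016).

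**Figure D4:**
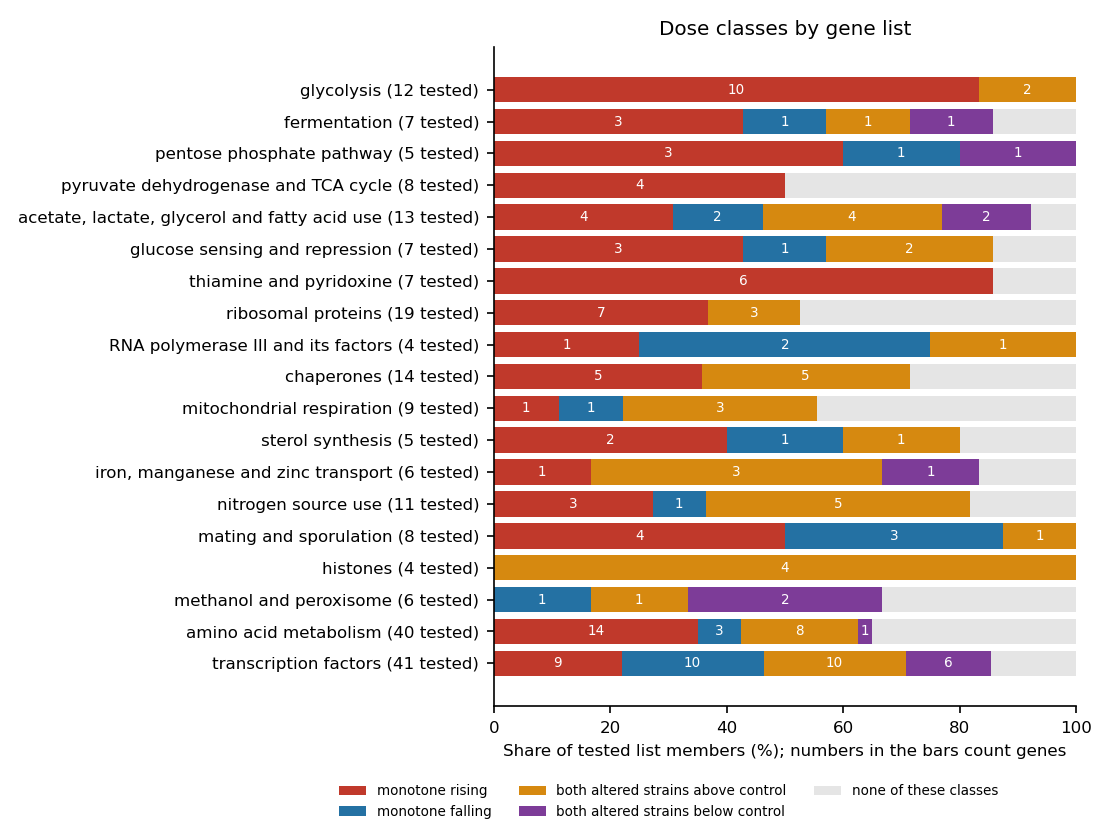
Share of the tested members of each gene list in each dose class, in percent on the x axis, with the number of genes printed in each part of the bar. Glycolysis (10 of 12) and thiamine and pyridoxine (6 of 7) are mostly monotone rising, the histones are all above the control in both altered strains, and the transcription factors are spread over the 4 classes.

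The monotone rising class varied less with the libraries used than the class higher in both altered strains. Leaving out each library in turn, the monotone rising class held 180 to 265 genes. The class higher in both altered strains held 41 to 473, with the extremes reached without control replicate 2 and OE replicate 2. The filter was applied anew in each of these fits, which tested 2612 to 3234 genes, so the gene sets differed too. The departures of *PFK1* and *UIP4* were called in each of these fits, whereas that of *HHT2* was lost without any 1 of the control or *Δcra1* libraries and without OE replicate 3.

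**Figure D5:**
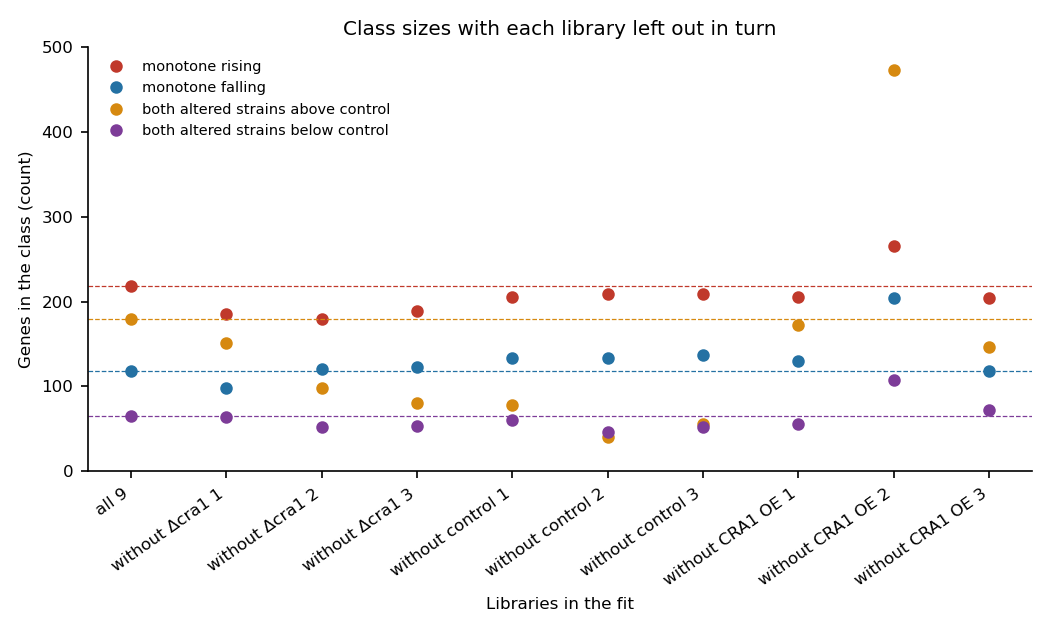
Number of genes in each dose class (y axis, count) with all 9 libraries and with each library left out in turn (x axis), with a dashed line at the count from all 9. The class above the control in both altered strains ranges from 41 to 473 genes, the monotone rising class from 180 to 265. The fits with a library left out tested 2612 to 3234 genes.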

How the data were processed

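RNA was measured in 9 libraries, 3 cultures of each strain, with strain and replicate number taken from the labels. The authors trimmed the reads (Trim Galore 0.4.2 per the submitters' processing notes), assigned them with kallisto (0.44.0 in those notes) to the *K. phaffii* CBS7435 annotation, and deposited kallisto's estimated counts, TPM and effective lengths of 5344 sequences, without further normalization. The strand setting is not given in the sources used here. Counts that the authors normalized for each pair of strains were not used here.

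Estimated counts were rounded, filtered with filterByExpr (minimum count 10, with 3 strains as groups), scaled by TMM factors and fitted once over all 9 libraries with edgeR 4.0.16 in R 4.3.3 (glmQLFit, prior count 0.125). The trend was the contrast of the *Δcra1* (score -1), control (0) and OE (1) strains in log2 per step, that is, the OE minus the *Δcra1* mean divided by 2. The departure was the control minus the mean of both other strains. Both were tested with the quasi-likelihood F test and adjusted by Benjamini-Hochberg over 2668 genes. SE is the absolute log2 value divided by the square root of F. Calls needed an adjusted p-value under 0.05 and a slope of at least 0.5 or a departure of at least 1, which is 2-fold. A gene was monotone when its trend was called and the fitted control mean lay between the others. It was higher or lower in both when its departure was called and the fitted means of both altered strains lay on the same side of the control. CPM values are TMM-scaled. Where every library of a strain had at most 3 counts, folds are lower bounds against 3 counts per library.

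Named genes were the 8 named genes of each class with the smallest p among those without overlap, all glycolytic and fermentative genes, up to 4 genes of each other list and up to 6 with both tests called. Members, lists and tests were chosen with earlier results of these data known. Names came from the study's supplementary table, which holds 714 of the 5344 identifiers, and the RefSeq table at hand, of another strain, matched 0 of them. Roles are mostly those of *S. cerevisiae* homologs. The scripts were tested on simulated data.

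Alternatives were RLE factors, library totals, no filter, a mean of at least 50 counts, DESeq2 1.42.0 without and with length offsets, limma 3.58.1 on log2(TPM + 1) and log2(TPM + 0.1) for a mean TPM of at least 1, a replicate block, thinning to 106272 counts, no fold cutoff, a control score of 0.23 from *CRA1* levels, and leaving out each library in turn.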

Additional observations from a re-analysis of the deposited data

Results flagged for a closer look

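Construct sequences were counted but entered no comparison. The egfp sequence had a median estimated count of 133 in the OE libraries (218, 72 and 133 in replicates 1, 2 and 3), above the 26 to 45 counts of the control libraries, and 13 to 27 counts in the *Δcra1* libraries. The kanamycin sequence had a median of 1679 counts in the *Δcra1* libraries and of 16 in the OE libraries, with 0 counts in every control library. All were noted because they exceed the level in the control libraries. Total counts differ between the strains, and the source of the kanamycin counts in the OE libraries was not tested. Outliers within a strain were not tested, since groups of 3 are too small.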

How the results depend on the processing

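Over the genes named by rule, 2100 values kept their direction and their side of the threshold under the alternatives, 107 fell short of it, 5 newly passed it, and no direction turned. For each gene only the test with the smaller p, trend or departure, was followed. Most of these genes were named for small p-values in these same libraries, so stable directions were favoured by the choice. The counts to compare are 507 trends, 269 departures, 218 monotone rising, 118 monotone falling, 179 higher and 65 lower in both altered strains. With a mean of at least 50 counts, which left 854 genes, they were 143, 59, 63, 37, 34 and 11. With no filter, 182 genes were monotone falling. Limma on log2(TPM + 1) gave 300 trends, 147 departures, 125 monotone rising, 108 higher and 27 lower in both, and on log2(TPM + 0.1) it gave 275, 124, 114, 89 and 24. Without a fold cutoff there were 463 departures, 201 monotone falling and 224 lower in both, and the control was then lower in 46.2% of the departures and not 71.0%. Rising trends made up 52.3% under library totals, 57.9% with no filter and 54.3% with limma on log2(TPM + 1), against 65.7%. The median departure of the genes shared with each alternative shifted by -0.14 with limma on log2(TPM + 1) and by -0.21 with the mean of 50 counts. Leaving out each library in turn gave 400 to 815 trends, 104 to 617 departures, 180 to 265 monotone rising, 98 to 204 monotone falling, 41 to 473 higher and 46 to 108 lower in both. Without OE replicate 2 there were 815 trends, 617 departures, 204 monotone falling, 473 higher and 108 lower in both. Without control replicates 1, 2 and 3 there were 160, 104 and 127 departures, and without *Δcra1* replicates 2 and 3 there were 174 and 155, with 98 and 80 genes higher in both. The cause of these shifts was not tested. The number of genes that passed the filter differed between fits, from 854 with the mean of 50 counts to 5322 with no filter. With a library left out the filter was applied anew, and 2612 genes (without OE replicate 1) to 3234 (without control replicate 2) were tested. DESeq2 gave counts within 1.5 times of each main count and shared 201 of the 218 monotone rising and 159 of the 179 genes higher in both. With the replicate number as a block there were 448 trends, 219 departures, and 193, 114, 133 and 62 genes in the classes. The numbers are not shown to pair all samples, since deviations of same-numbered libraries correlated between -0.40 and 0.17 and not every library correlated best with its own number. Between control and OE libraries, however, the pairs numbered 1, 2 and 3 correlated at 0.13, 0.17 and 0.08, above the other pairs at -0.14 to 0.02. Whether control and OE cultures were paired was not tested. Low counts limit the genes near the floor: 89 of the 2668 tested genes had a strain with at most 3 counts in every library.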

Other observations

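Genes with consecutive identifier numbers shared a class more often in some classes than in others. Of the 218 monotone rising genes, 144 had a tested gene with the next higher or lower number, and for 37 of these (25.7%) that gene was monotone rising too, against 8.57% of the 1726 genes outside the class that had such a neighbour in number. Among the genes higher in both altered strains it was 22 of 124 (17.7%) against 8.30%, and among the monotone falling 5 of 88 (5.68%) against 5.89%. Among the genes lower in both it was 0 of 42 against 3.39%, too few genes to tell these shares apart. Examples are *URK1*, *CDC19* and *REV1*, numbered 502, 503 and 504 on chromosome 2, of which *CDC19* had a larger second step and the others a larger first step, the pair *THI20* and *DAK2*, the pair *THI7* and *THI4*, and the histone genes *HHT2* and *HHF1*. Positions and strands of the genes were not analysed here, and whether neighbouring genes share reads was not tested. The examples were chosen after their values were seen.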
